A study of Danio rerio with 5 samples.

Results

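Regions of the zebrafish genome with a MethylCap-seq peak in the embryo of 24 hours post fertilisation (24 hpf) and no peak at dome stage or at 48 hpf are described here. The MethylCap lists of the 3 stages were merged on the 25 numbered chromosomes wherever peaks overlapped by at least 1 bp, and 106790 of the 373137 merged regions (28.6%) had a peak from the 24 hpf list alone. Each of these 106790 regions held exactly 1 peak, so that region and peak are the same interval. They made up 32.3% of the 330176 peaks of 24 hpf, but 23.8% of the bases in those peaks, and covered 28.3 Mb, or 2.08% of the chromosome span of 1357 Mb. The members were chosen by the peak calls of the 3 MethylCap lists. Their fold, height, width and distance to MethylCap peaks are therefore a description, with no test, whereas H3K27me3 was not used to choose them.

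The study profiled DNA methylation by MethylCap-seq at dome (a late blastula stage), 24 hpf and 48 hpf, and H3K27me3 by ChIP-seq at dome and 48 hpf. All 5 libraries came from whole embryos of mixed AB and Tubingen background, with no genotype or treatment named, and each group had 1 library. A whole embryo holds many cell types, so a peak does not show which cells carried the mark, and fewer cells with a mark cannot be told apart from less of it per cell. H3K27me3 at 24 hpf was not analysed here. Since no group had a second library, spread between replicates is unknown and nothing was tested for significance. Intervals in parentheses are Wilson 95% intervals, which cover counting error only and treat regions as independent.

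In vertebrates, DNA methylation falls mainly on cytosines in CpG dinucleotides, and most of the zebrafish genome is methylated throughout embryonic development, with CpG-rich promoters as the main exception. MethylCap-seq captures methylated DNA fragments with a methyl-CpG binding domain, and its signal grows with the number of methylated CpGs in a fragment, so it ranks sites by methylated CpG density rather than giving a methylation level. H3K27me3 is deposited by Polycomb repressive complex 2 and marks developmental genes that are held silent. The 2 marks are known to occupy largely separate places where CpGs are dense.

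Depth could be read from the deposited values. The peak caller's fold enrichment is the number of fragments over the summit plus 1, divided by the local background plus 1, and its p-value is the Poisson probability of more fragments than were seen at that background. A whole number of fragments that satisfied both deposited values within 0.001 on the −log10 scale was found for all 743413 MethylCap peaks, with a largest deviation of 0.00022. The lowest local background in a list, taken here as its genome-wide background, was 2.52 fragments at dome, 2.67 at 24 hpf and 1.65 at 48 hpf. The narrowest peaks, whose width was taken as the caller's fragment length, spanned 244, 192 and 211 bp. Background divided by that width gave 10.3 fragments per kb at dome, 13.9 at 24 hpf and 7.82 at 48 hpf, so the 24 hpf library was 1.34 times as deep as that of dome and 1.78 times as deep as that of 48 hpf. The list with the most peaks was thus also the deepest, and the part of depth in the number of regions called at 24 hpf alone was not tested. With the 24 hpf list shortened to the 192673 peaks of the 48 hpf list, 44293 regions were 24 hpf only. With all 3 lists at that length there were 48794. A shorter list holds fewer regions of any kind, so these counts cannot be set directly against 106790 from 330176 peaks.

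The 24 hpf only peaks were low and narrow. Their summits held a median of 16 fragments (5th to 95th percentile 11 to 25, lowest 8, highest 140). The peaks of 24 hpf that belonged to regions called at all stages had a median of 20 fragments, those shared with dome alone 18, and those shared with 48 hpf alone 17. The distributions overlapped widely, and the 75th percentile of the 24 hpf only peaks, 19 fragments, lay just under the median of the peaks of all stages. Median fold was 3.82 for the 24 hpf only peaks, against 4.09 for those shared with dome, 3.97 for those shared with 48 hpf and 4.46 for those of all stages. Median −log10 q was 5.11, against 5.77, 5.48 and 7.15. The local background under the 24 hpf only peaks was often the lowest of the list, in 45193 of them (42.3%), compared with 32.7% of the other 24 hpf peaks.

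**Figure D1:**
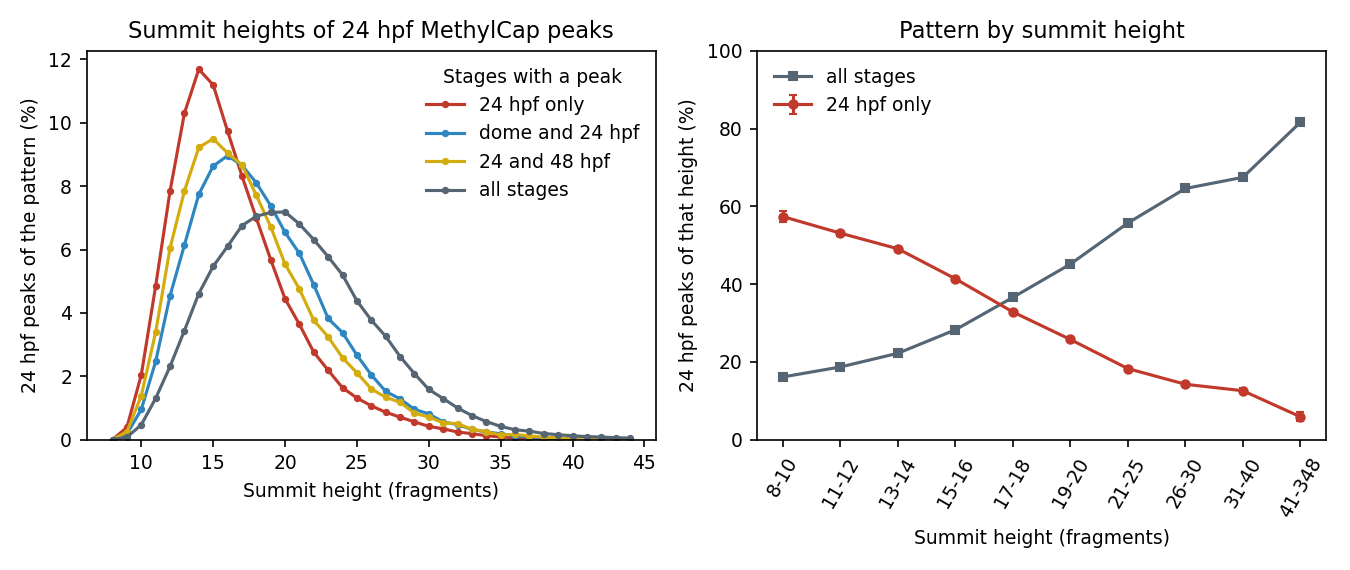
Left, share of 24 hpf MethylCap peaks (%) by number of fragments at the summit, for peaks called at 24 hpf only and for peaks also called at dome, at 48 hpf or at both (heights under 45 are drawn). Right, share of the 24 hpf peaks of a given height that were 24 hpf only or belonged to regions of all stages, with Wilson 95% intervals on the 24 hpf only points. The share called at 24 hpf only fell from 57.4% at 8 to 10 fragments to 5.92% above 40 fragments.

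The share of 24 hpf peaks called at no other stage fell steadily with height. It was 57.4% (55.9 to 58.8%) at 8 to 10 fragments, 41.4% at 15 to 16, 25.8% at 19 to 20, and 14.3% (13.9 to 14.7%) at 26 to 30. Above 40 fragments 103 of 1740 peaks (5.92%, 4.90 to 7.13%) were 24 hpf only, and 81.6% belonged to regions of all stages. By significance, 49.6% of the 10% of the list with the lowest −log10 q and 7.01% of the 10% with the highest were 24 hpf only. Single-stage calls were therefore concentrated among, but not limited to, the weaker calls of the list.

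The heights can be set against what the other lists called. Multiplied by the ratio of the genome-wide backgrounds, the median summit of 16 fragments corresponds to 15.1 fragments at dome and 9.90 at 48 hpf. Peaks at the genome-wide background started at 8 fragments at dome, with a median of 15, and at 6 fragments at 48 hpf, with a median of 11. Below these lowest called heights fell 4 of the 24 hpf only peaks when scaled to dome and 425 (0.398%) when scaled to 48 hpf. Below the medians fell 48.3% and 66.4%, against 17.7% and 30.6% of the 24 hpf peaks of all stages. Scaled heights thus lay on both sides of the dome median in nearly equal number, and mostly below the 48 hpf median. These limits come from peaks at the genome-wide background, where 42.3% of members stood, and a scaled height leaves out the counting error of each summit.

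Widths varied little. The median was 239 bp (5th to 95th percentile 192 to 431), against 300 bp for 24 hpf peaks shared with dome, 280 bp for those shared with 48 hpf and 394 bp for those of all stages. The narrowest possible width of 192 bp was found in 15167 members (14.2%). Only 2566 (2.40%) were wider than 500 bp, compared with 23.7% of the other 24 hpf peaks. The widest spanned 1542 bp, on chr19:8786803-8788344 (danRer7, as are all positions here), with a fold of 5.06 and 20 fragments over a local background of 3.15. It lay 1040 bp from the nearest dome peak and 962 bp from the nearest 48 hpf peak.

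The strongest members stood well above background. The region with the highest fold, of 10.1, spanned 472 bp on chr12:44615649-44616120, with 36 fragments where the background was 2.67. Its nearest dome and 48 hpf peaks were 6557 and 6555 bp away, and another 24 hpf only region lay 2769 bp away. On chr19:13602410-13602799 a fold of 9.55 rested on 34 fragments, with the nearest dome peak at 1360 bp and the nearest 48 hpf peak at 9166 bp. A region on chr20:28437956-28438338 had a fold of 9.37 and 35 fragments, and regions on chr8:32699053-32699421 and chr18:23796271-23796626 each had a fold of 9.28 and 33 fragments. None of these 5 regions overlapped an H3K27me3 peak at either stage, but 5 regions are too few to give a share. In all, 1068 members reached a fold of 6.41, the upper 1%. Their median height was 24 fragments and their median width 323 bp, and 793 of them (74.3%) stood on the genome-wide background. At a given height the fold is higher where the background is lower, so a choice by fold favours such places. The lowest of them had 23 fragments, the least that reaches this fold at the genome-wide background. This scales to 14.2 fragments at 48 hpf, where the median height called at background was 11. The height is set by the fold cut, so it does not tell whether these members would have been called at 48 hpf. Of the 1068 members, 28 (2.62%, 1.82 to 3.76%) overlapped an H3K27me3 peak of dome, against 2.01% of all members. An H3K27me3 peak of 48 hpf was overlapped by 3 of the 1068.

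The tallest members were chosen by height, those above by fold, so differences in fold and background follow at least partly from this choice. The 103 members with more than 40 fragments had a median fold of 2.40 over a median local background of 19.2 fragments, and 27 of them (26.2%) lay on chromosome 4, which held 3.79% of all members. The most significant member of all was among the 103, on chr4:61305336-61305690. It had 132 fragments over a local background of 39.9, a fold of 3.25 and a −log10 q of 26.01. The nearest dome peak was 4300 bp and the nearest 48 hpf peak 2799 bp away. This member overlapped an H3K27me3 peak of dome with a fold of 1.66, against a median of 3.15 for all H3K27me3 peaks of dome. The second most significant, on chr2:59845475-59845869, had a fold of 5.89 and 61 fragments and lay 12 bp from a dome peak.

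Most members lay within a few kb of a peak of another stage. The median distance, edge to edge, was 1878 bp to the nearest dome peak, 2254 bp to the nearest 48 hpf peak and 1455 bp to the nearer of both. A dome or 48 hpf peak lay within 1 kb of 41572 members (38.9%) and within 5 kb of 88.2%. Regions of other patterns that also lacked a dome peak were slightly nearer to one, at a median of 1620.5 bp for 48 hpf only and 1758 bp for 24 and 48 hpf. Of the regions without a 48 hpf peak, dome only regions lay at a median of 1809 bp from one and dome and 24 hpf regions at 2142 bp. Distances depend on the number of peaks in the list that is approached, which differs between dome and 48 hpf. Between the higher-scoring 50% of each list the medians were 4165 bp to dome and 5064 bp to 48 hpf, and 21.8% of the regions had such a peak within 1 kb.

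Few members lay directly beside a peak of another stage, with 3.64% within 100 bp of a dome or 48 hpf peak. At the border of the rule, the 346 members with a gap of at most 10 bp to such a peak had a median fold of 3.18, 17 fragments and a width of 244 bp. The 383 peaks of 24 hpf with 1 to 10 bp inside one, which are not members, had a median fold of 3.27, 17 fragments and a width of 240 bp. Peaks on both sides of the border were thus alike in these values.

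At the other extreme, 2328 members (2.18%) had no dome or 48 hpf peak within 10 kb, and 160 had none within 20 kb. The 3 most remote lay near each other on chromosome 9. The farthest, chr9:43875359-43875562, was 61366 bp from a dome peak and 65645 bp from a 48 hpf peak. It had a fold of 4.64 and 16 fragments and was 204 bp wide. Its neighbours on chr9:43881712-43881918 and chr9:43867903-43868118 had folds of 4.64 and 5.18. Next came chr7:36057815-36058142 and chr7:36052357-36052642, each with a fold of 6.003 and 21 fragments, inside a stretch of 10 consecutive 24 hpf only regions over 79.8 kb (chr7:36016674-36096512) with no region of another pattern between them.

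**Figure D2:**
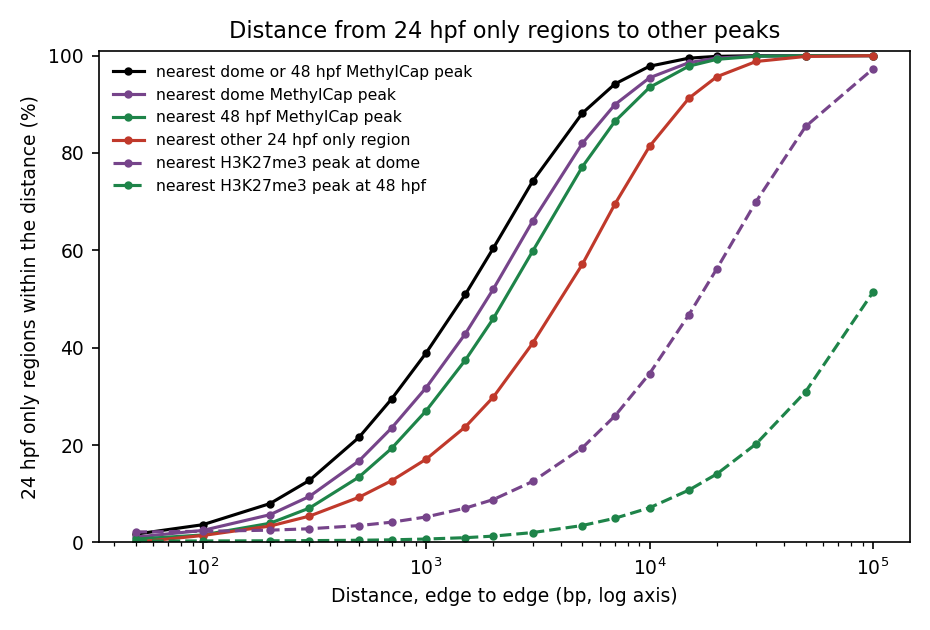
Share of the 24 hpf only regions (%) with a peak of the named kind within a given distance, measured edge to edge in bp on a log axis; overlap counts as distance 0 for H3K27me3. Within 1 kb, 38.9% had a dome or 48 hpf MethylCap peak, 17.1% another 24 hpf only region and 5.23% an H3K27me3 peak of dome.

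Members lay among the other methylated regions in nearly the proportions of the whole set. The nearest merged region was another 24 hpf only region for 29.0% of members (28.7 to 29.2%) and for 27.7% of all other regions (27.5 to 27.9%), against 28.6% of all regions. It was a region of all stages for 31.4% of members and 31.9% of the others. Immediate neighbours on both sides were 24 hpf only for 9431 members (8.83%), and on neither side for 53559 (50.2%). Runs of 5 or more consecutive 24 hpf only regions numbered 627 of 75459 runs, and the longest held 10 regions. The pattern of the nearest region thus differed little between members and other regions.

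Another member lay within 5 kb of 57.1% of the regions (56.8 to 57.4%), at a median distance of 4058 bp. The corresponding share was 59.2% among regions of all stages, which are similar in number, and 36.0% in dome and 24 hpf regions, which are fewer. The other 4 patterns, fewer still, had shares of 11.1% (dome and 48 hpf) to 21.9% (dome only). Such a share depends on how many regions a pattern has. For the members it was 28.9% with the 24 hpf list shortened to the length of the 48 hpf list, 31.2% with lists of equal length and 33.7% when peaks within 1 kb were merged. When members within 5 kb were joined, 45804 stood alone, 15764 formed pairs and 1022 clusters held 5 or more.

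The largest cluster held 15 members over 52.5 kb on chr13:3354019-3406497, together with 11 regions of other patterns. Its members had folds of 2.78 to 5.89 (median 3.56) and 10 to 25 fragments, and they were 192 to 423 bp wide. No H3K27me3 peak of dome and 1 of 48 hpf lay in it. A cluster of 13 members spanned 28.8 kb on chr22:38790865-38819690, among 7 other regions, with a median fold of 3.67 and 2 H3K27me3 peaks of dome. Near the start of the same chromosome, 12 members spanned 23.7 kb on chr22:348220-371948, with folds of 2.40 to 3.57. The other 2 of the 5 largest clusters lay on chromosome 2 (chr2:2838723-2868596 and chr2:52709018-52733697), with 11 members each. The median fold in these 5 clusters was 2.87 to 3.67, against 3.82 for all members, and the highest fold was 5.89. Heights in them ranged from 10 to 28 fragments.

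The share of merged regions that were 24 hpf only was even across most chromosomes. It ranged from 26.2% on chromosome 22 to 31.0% on chromosome 18 outside chromosome 4, where it was 23.7% (23.1 to 24.4%). The low share was found in the distal part of chromosome 4. From 30 Mb to its end 17.7% (17.0 to 18.5%) of 9792 regions were 24 hpf only, and below 25 Mb 34.1% (32.9 to 35.4%) of 5877. Windows of 1 Mb were counted from the start of each chromosome. A shorter last window was left out, so the far end was not fully covered. In the 1344 windows the number of members ranged from 20 to 146, with a median of 78. Their share of the merged regions in a window ranged from 13.3% to 46.7%, with a median of 28.8%. The 5 fullest windows were the first Mb of chromosomes 10, 17, 16, 8 and 22, with 123 to 146 members. They held 371 to 417 merged regions, of which 31.1% to 35.0% were members. The window with the highest share was another one, from 13 to 14 Mb of chromosome 18, with 78 members among 167 regions.

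Density rose towards chromosome ends together with that of all methylated regions. In the outermost Mb there were 106.7 members and 359.2 merged regions per Mb, and at more than 20 Mb from an end 70.8 and 234.0. The share of regions that were 24 hpf only was 29.7% and 30.3% at these places and lowest, 26.4%, at 2 to 3 Mb from an end. With distance from a chromosome end, the members thus broadly followed the general density of MethylCap peaks. Chromosome 4 from 30 Mb differed, with 54.0 members and 305.1 merged regions per Mb, against 79.3 and 275.0 on the other chromosomes.

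**Figure D3:**
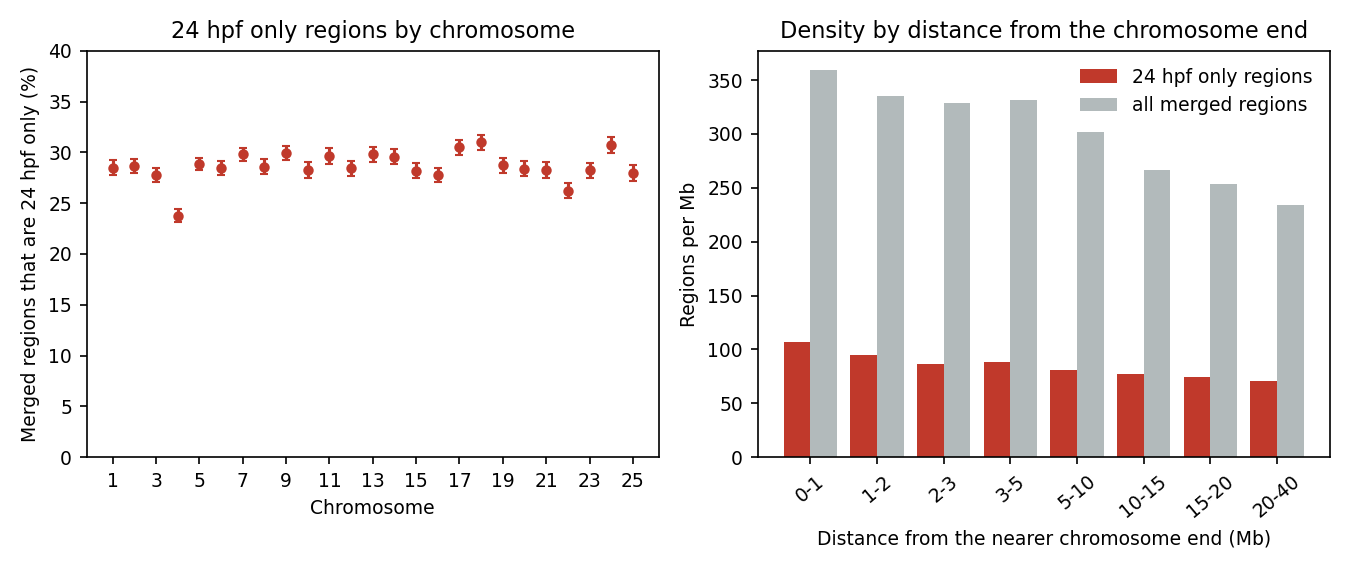
Left, share of merged MethylCap regions (%) that were 24 hpf only on each chromosome, with Wilson 95% intervals. Right, number of 24 hpf only and of all merged regions per Mb by distance from the nearer chromosome end. Chromosome 4 is lowest at 23.7%, and both densities fall from the ends inward, from 106.7 to 70.8 members per Mb.

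H3K27me3 was rare in these regions at both stages, and at dome rarer than in regions of any other pattern. At dome, 2146 of 106790 members (2.01%, 1.93 to 2.10%) overlapped an H3K27me3 peak, against 3.88% of all merged regions. The other patterns ranged from 2.85% (2.72 to 2.99%) in dome and 24 hpf regions to 6.31% (6.17 to 6.45%) in regions of all stages, and no interval reached that of the members. At 48 hpf, 292 members (0.273%, 0.244 to 0.307%) overlapped a peak, against 0.401% of all merged regions. This was below regions of all stages (0.557%, 0.517 to 0.602%), dome only regions (0.464%, 0.390 to 0.553%) and dome and 48 hpf regions (0.608%, 0.478 to 0.773%). It could not be distinguished from regions of 24 and 48 hpf (0.303%, 0.248 to 0.369%), dome and 24 hpf (0.321%, 0.278 to 0.371%) or 48 hpf only (0.344%, 0.274 to 0.432%). In all, 2020 members met H3K27me3 at dome only, 166 at 48 hpf only, and 126 at both (0.118%, against 0.25% of all merged regions), which left 104478 (97.8%) without either. With the higher-scoring 50% of the H3K27me3 lists the shares were 0.768% at dome and 0.114% at 48 hpf for members, and 2.19% and 0.197% for the other regions.

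**Figure D4:**
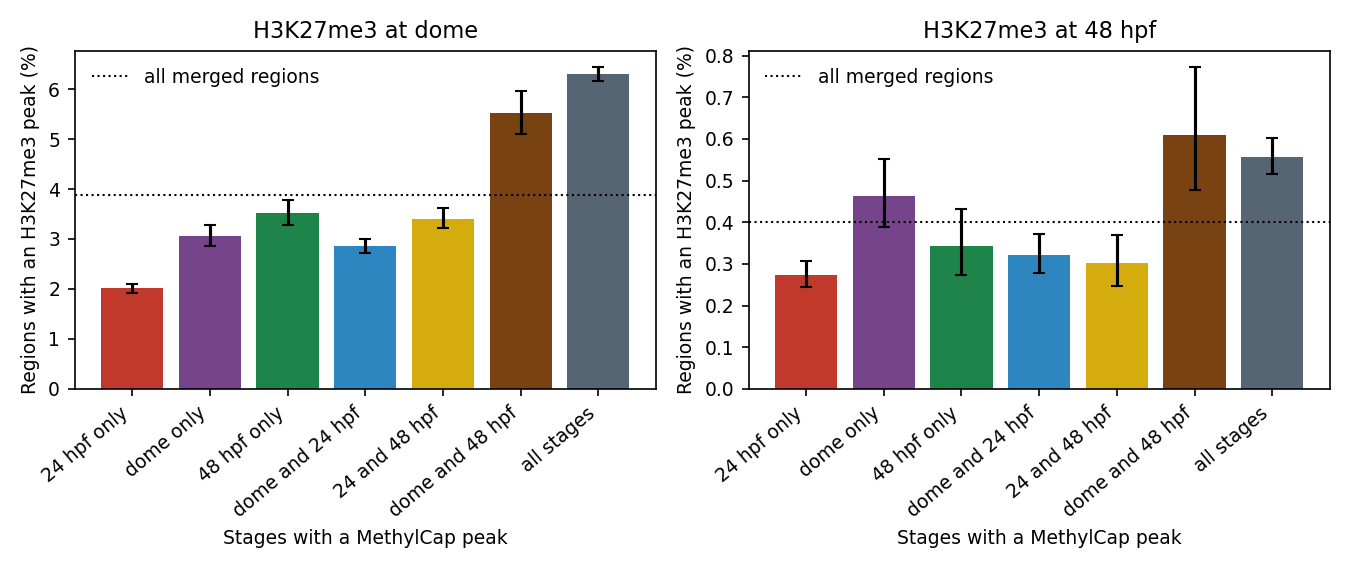
Share of merged MethylCap regions (%) that overlap an H3K27me3 peak of dome (left) and of 48 hpf (right), by the stages at which the region had a MethylCap peak. Bars start at 0, error bars are Wilson 95% intervals for counting error, and the dotted line is the share in all merged regions. The 24 hpf only regions are at 2.01% at dome and 0.273% at 48 hpf.

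Because a wider interval meets other peaks more readily, the shares were also taken among 24 hpf peaks of like width and like height. Among the narrowest class of peaks, closest to the minimum width, 1.87% (1.74 to 1.997%) of 24 hpf only peaks overlapped an H3K27me3 peak of dome. The share was 2.37% (2.12 to 2.66%) in peaks shared with dome, 2.96% (2.61 to 3.35%) in those shared with 48 hpf, and 4.19% (3.86 to 4.55%) in those of all stages. In members of 8 to 18 fragments the share stayed between 1.83% and 1.90%, and it was 2.36% at 21 to 25 fragments and 4.02% (3.10 to 5.19%) from 31 fragments upwards. In peaks of all stages it was 5.15% at 8 to 12 fragments and 18.1% from 31 fragments upwards. This tallest class has no upper limit and reached 140 fragments in members and 348 in peaks of all stages, so heights were not matched within it. The share of members was the lowest in each of the 6 classes of width and 8 classes of height. Its interval lay apart from that of peaks of all stages in all of them, and from that of peaks shared with 48 hpf in 6 classes of width and 6 of height. Against peaks shared with dome the intervals overlapped in most classes, 4 of 6 by width and 5 of 8 by height. Heights were also split only at 18 fragments, a cut chosen after the data were seen. Below it, the share was 1.897% in members and 2.43% in peaks shared with dome. From 18 fragments upwards it was 2.23% and 2.9003%. The intervals lay apart on both sides of the cut, where heights were matched only coarsely. Against peaks shared with dome, the intervals were thus apart in these wide classes of height, but not in most of the narrower classes. Overlap of separate intervals does not show that the shares are alike. In every class of width and height the share was lower in members than in peaks shared with dome.

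At 48 hpf the members differed from peaks of all stages in the tallest and the widest classes, which have no upper limit. Heights there reached 140 fragments in members and 348 in peaks of all stages, and widths 1542 and 3218 bp. Height and width were thus not matched within these classes. Up to 30 fragments, 0.189% to 0.365% of members and 0.209% to 0.409% of peaks of all stages overlapped an H3K27me3 peak in each height class, and the intervals overlapped. From 31 fragments upwards the shares were 0.804% (0.449 to 1.43%) of 1369 members and 3.92% (3.52 to 4.36%) of 8196 peaks of all stages. Above 500 bp they were 0.156% (0.0606 to 0.400%) of 2566 members, 4 peaks in all, and 0.797% (0.718 to 0.885%) of 43515 peaks of all stages. The share was lower in members in 3 of 6 classes of width and 5 of 8 of height. Against peaks shared with dome it was lower in 2 and 5, and against those shared with 48 hpf in 2 and 4. The intervals overlapped those of both shared patterns in all 6 classes of width and 8 of height.

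**Figure D5:**
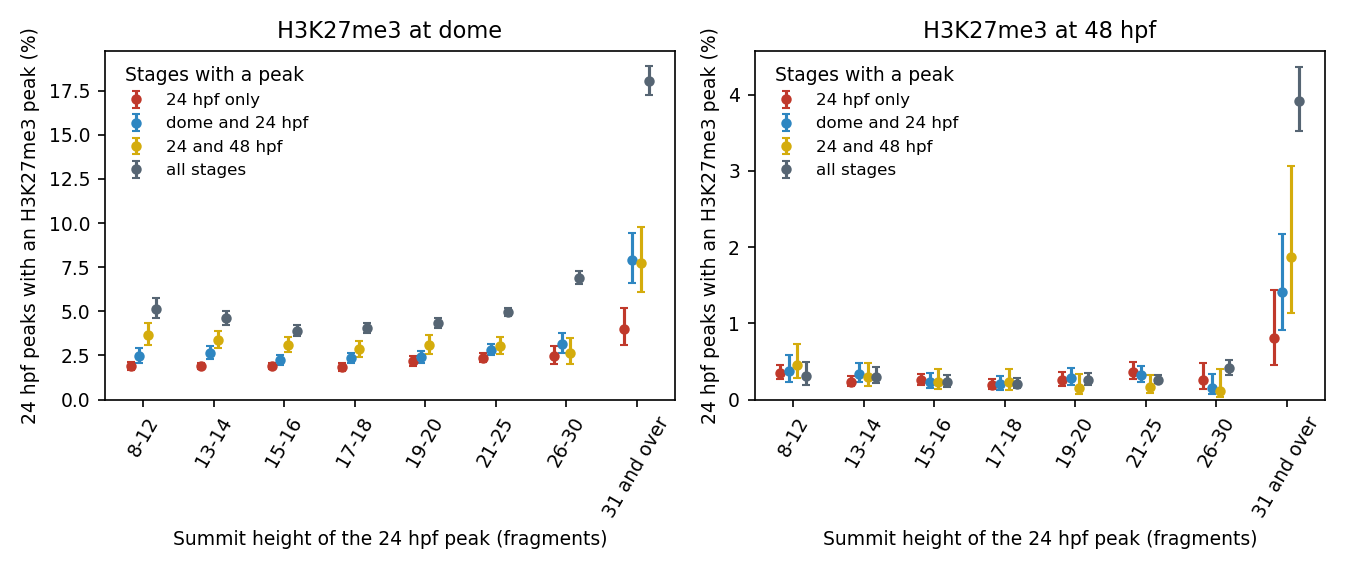
Share of 24 hpf MethylCap peaks (%) that overlap an H3K27me3 peak of dome (left) and of 48 hpf (right), by the number of fragments at the MethylCap summit and by the stages called. Points are shares with Wilson 95% intervals. At dome the 24 hpf only peaks lie below those of all stages at every height, for instance 1.88% and 5.15% at 8 to 12 fragments. At 48 hpf the intervals of these patterns overlap up to 30 fragments, and from 31 upwards the shares are 0.804% and 3.92%. The class from 31 upwards has no upper limit, so heights are not matched within it.

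H3K27me3 peaks that met only such regions were less often found at both stages than all H3K27me3 peaks of their list. At dome, 1767 H3K27me3 peaks overlapped a 24 hpf only region and no other merged region, 5.52% of the list. Their median width was 342 bp, their median fold 3.09 and their median −log10 q 1.41, against 397 bp, 3.15 and 1.59 for all 31983 peaks. An H3K27me3 peak of 48 hpf overlapped 5.60% (4.62 to 6.77%) of these 1767 peaks, compared with 15.6% (15.2 to 15.99%) of all dome peaks and 21.7% (21.2 to 22.3%) of those that met no MethylCap region. Of the 2093 dome peaks that met a 24 hpf only region, with or without others, 7.41% (6.36 to 8.61%) were shared, and of those that met a region of all stages, with or without others, 6.64% (6.09 to 7.24%), which could not be distinguished. At 48 hpf, 209 H3K27me3 peaks met a 24 hpf only region and no other, and 42.6% (36.1 to 49.4%) of them overlapped an H3K27me3 peak of dome. The corresponding share was 72.7% (71.6 to 73.8%) of all 48 hpf peaks and 75.2% (74.0 to 76.3%) of those that met no MethylCap region. With or without other regions, it was 49.6% (43.7 to 55.5%) of the 272 peaks that met a 24 hpf only region and 71.7% (68.0 to 75.2%) of those that met a region of all stages.

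Single sites show how the marks met. On chr11:18864268-18864880 a member of 613 bp, with a MethylCap fold of 8.73 and 31 fragments, overlapped an H3K27me3 peak of dome with a fold of 3.03, and the nearest H3K27me3 peak of 48 hpf was 105892 bp away. On chr23:17940858-17941248 the folds were 7.91 for MethylCap at 24 hpf and 3.12 for H3K27me3 at dome. Among members with H3K27me3 at 48 hpf only, chr23:23530522-23531029 had a MethylCap fold of 7.09 and an H3K27me3 fold of 2.48, and chr19:28857891-28858193 had 6.82 and 3.55. In both, an H3K27me3 peak of dome lay nearby, at 1660 and 702 bp. With H3K27me3 at both stages, chr21:18732768-18733050 had a MethylCap fold of 6.003 and H3K27me3 folds of 2.91 at dome and 3.12 at 48 hpf. On chr3:5592728-5593030 the folds were 5.97, 3.27 and 3.81. All these sites had moderate H3K27me3 folds. Their fold is an average over the peak in the broad-peak layout of the H3K27me3 lists, and a summit value for MethylCap, so it cannot be compared between the marks.

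Wide H3K27me3 domains, made by joining peaks within 5 kb and spanning at least 10 kb, held fewer members per Mb than the chromosomes as a whole, as they did of all merged regions. The 202 dome domains held 87, or 22.6 per Mb, against 78.7 per Mb over the chromosomes. Of these domains 46 held at least 1 member, with at most 10 in 1 domain. All merged regions together stood at 101.9 per Mb against 275.0. The 66 domains of 48 hpf held 48 members, or 47.2 per Mb, spread over 27 domains with at most 4 in 1 domain, and all merged regions stood at 131.8 per Mb. Members were 22.2% (18.4 to 26.6%) of the merged regions in dome domains and 35.8% (28.2 to 44.2%) of the 134 in 48 hpf domains, compared with 28.6% of all regions, so their share lay below the overall share in dome domains and was not distinguishable from it in 48 hpf domains.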

How the data were processed

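DNA methylation (3 libraries) and H3K27me3 (2 libraries) were available as 1 peak list per library. Per the submitters' processing notes, CASAVA 1.8.2, Bowtie2 2.2.1, SAMtools and MACS2 were used with the build danRer7; the sources used here do not give their roles or parameters, an input control or pooling of replicates. Each list's deposited fold is the enrichment over the caller's local background, a ratio. The −log10 p and q values were deposited as the caller wrote them. The score, a whole number deposited with each peak, served only to shorten lists. All of these are the authors' values, compared only among peaks of the same list; summit heights alone were scaled between lists.

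Only peaks on the numbered chromosomes were used. Alternatives changed the overlap, merging distance, list length, chromosomes and H3K27me3 threshold. Intervals were merged and compared with Python 3.11.15, NumPy 2.4.6, pandas 2.3.3 and SciPy 1.17.1. Summit heights were solved from the deposited fold and p-value, assuming MACS2's pseudocount of 1. Interval steps and height recovery were tested on simulated data. The rule for regions named in the text took 5 regions for each of these: highest −log10 q, widest, highest fold, farthest from other stages, largest clusters, and highest fold by H3K27me3 stage. Windows, longest runs and the tallest members were added after values were seen. The members and lists were chosen with earlier results of these data known. No genome or annotation of danRer7 was used, so no gene or sequence is given.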

Additional observations from a re-analysis of the deposited data

How the results depend on the processing

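The direction of the comparison with dome H3K27me3 held in all 8 settings in which every pattern was computed, the reported one included: the 24 hpf only regions had the lowest share of the 7 patterns. At 48 hpf they were lowest in 7 of 8, the exception being the shortened 24 hpf list, with 0.294% against 0.268% in another pattern. In the reported setting the next pattern, at 0.303%, lay inside the interval of the members (0.244 to 0.307%), so this rank was not resolved. The settings reuse the same peaks and are not independent. Requiring 50% of the shorter peak to be covered before regions counted as shared gave 42.9% within 1 kb of another stage, 59.8% with another member within 5 kb, a width of 240 bp and median distances of 1729 bp (dome) and 2109 bp (48 hpf). Peaks with a smaller overlap then joined the members at a distance of 0. The share within 1 kb thus rises and the median distances fall by construction. Merging within 1 kb gave 57115 regions, 33.7% with another within 5 kb, a fold of 3.90, distances of 3058 and 3451 bp and, by construction, 0% within 1 kb of another stage. The higher-scoring 50% of each MethylCap list gave 2.49% with dome H3K27me3, 21.8% within 1 kb, 42.0% within 5 kb, a fold of 4.69, a width of 304 bp and distances of 4165 and 5064 bp. MethylCap lists of equal length gave 48794 regions, 2.16% with dome H3K27me3, 34.6% within 1 kb, 31.2% within 5 kb, a fold of 4.54, a width of 269 bp and distances of 2300 and 2431 bp. Shortening only the 24 hpf list to the length of the 48 hpf list gave 44293 regions, 2.12% with dome H3K27me3, 35.5% within 1 kb, 28.9% within 5 kb, a fold of 4.55, a width of 264 bp and distances of 2080 and 2495 bp. Keeping higher-scoring peaks raises folds by construction, and the cause of the shifts not described here as by construction was not tested. Chosen after the data were seen, only members with a summit of 18 fragments or more, whose scaled height reached the median called at background at both other stages, left 35886 regions (33.6%), with 2.23% for dome H3K27me3, 48.3% within 1 kb, 37.5% within 5 kb, a fold of 3.98, a width of 272 bp and distances of 1354.5 and 1654 bp. The higher-scoring 50% of the H3K27me3 lists gave 0.768% (dome) and 0.114% (48 hpf) of members; other regions had 2.19% and 0.197%. H3K27me3 within 1 kb was found for 5.23% and 0.700%, against 8.47% and 0.9503%. Another member lay within 2 kb of 29.9% and within 10 kb of 81.4%. In all, 30 of 78 alternative values stayed within counting error or, for the number of regions, within 1.5 times. These included every value without chromosome 4 and with all sequences. Using all sequences added 0 regions of 24 hpf only, so the values of that setting could not move. No paired analysis was possible because each group had 1 library. The main limits are the single library per stage, the unequal depth of the lists and the lack of H3K27me3 at 24 hpf, so that a region called at 1 stage alone is not shown to have changed.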
